A study of Mus musculus with 5 samples.

Results

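The genes described here are 10 components of the Notch pathway, chosen by name with earlier results of these data known: the receptors *Notch1*, *Notch2* and *Notch3*, the ligands *Dll1*, *Dll3*, *Jag1* and *Jag2*, the DNA-binding factor *Rbpj*, and the target genes *Hes1* and *Hes5*. They are 10 of the 22380 protein-coding genes in the annotation of the mouse mm9 assembly. The question asked of each gene was whether chromatin in its regulatory domain was recovered with *Paupar*, a long non-coding RNA transcribed next to *Pax6*. A regulatory domain comprised the 5 kb before and the 1 kb after the start of a gene and was extended on each side to the same interval of the next protein-coding gene, by at most 1 Mb, and a gene was counted as having a peak where the midpoint of a peak lay in its domain. *Notch3*, *Rbpj*, *Hes1* and *Hes5* had a peak, that is 4 of the 10 genes (40.0%), while 3688 of all 22380 protein-coding genes did (16.5%). *Hes1* had 2 peaks and the other three genes had 1 each, so that 5 of the 2849 peaks of the list were assigned to these genes. Since the choice was not independent of the peaks, the share of 40.0% is a description and supports nothing. None of the 4 ligands had a peak.

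The peaks came from CHART-Seq (capture hybridisation analysis of RNA targets), in which biotinylated antisense oligonucleotides capture an RNA from cross-linked cells together with its chromatin, and RNase H releases the associated DNA for sequencing. All 5 libraries were made from untreated Neuro 2A (N2A) cells, a mouse neuroblastoma line: 2 pull-downs with *Paupar* oligonucleotides, 2 control pull-downs with an oligonucleotide for the *E. coli* *LacZ* gene, and 1 library of input DNA. The peaks were those called against both the *LacZ* control and the input, and the deposited list holds for each a position, a width and a score, with no value for a single library. There was therefore no replicate error for any peak, the depth behind a peak was unknown, and no test was made: counts for the Notch pathway genes are set beside the same counts over all genes or all peaks, and a position list cannot be checked for the markers of a neuroblastoma cell.

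Notch signalling passes between touching cells. A Delta or Jagged ligand on the signalling cell binds a Notch receptor on its neighbour, the receptor is cut by an ADAM protease and then by γ-secretase, and the freed intracellular domain joins RBPJ and a Mastermind coactivator on DNA and switches on genes of the Hes and Hey families. HES1 and HES5 repress proneural genes, and in the developing nervous system the pathway is known for holding progenitors in an undifferentiated state. Without the Notch intracellular domain, RBPJ recruits corepressors to the same sites.

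Stretches of the 5 peaks are given here because they carry the positions and the sequence matches on which the descriptions turn. All were read from the forward strand of mm9. The *Notch3* stretch (chr17:32254786-32254985) holds both copies of the core of the RBPJ site in that peak, in capitals. The *Rbpj* stretch (chr5:54062951-54063150) surrounds the longest match to a capture oligonucleotide, in capitals. The upstream *Hes1* stretch is the central 200 bases of that peak (chr16:30013556-30013755) and holds none of the motifs searched. The downstream *Hes1* peak is represented by its tandem repeat (chr16:30144480-30144757), in which capitals mark exact copies of the commonest 20-base unit, and by the product of the study's quantitative PCR primers (chr16:30144854-30145021), in which capitals mark the primer sites. The *Hes5* stretch is the central 300 bases of its peak (chr4:154319982-154320281), with 2 N boxes and 1 RBPJ core in capitals.
Notch3 peak: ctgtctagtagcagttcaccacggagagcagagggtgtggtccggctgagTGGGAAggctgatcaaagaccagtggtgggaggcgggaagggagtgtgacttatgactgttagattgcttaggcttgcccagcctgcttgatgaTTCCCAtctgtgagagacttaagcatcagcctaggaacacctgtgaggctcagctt
Rbpj peak: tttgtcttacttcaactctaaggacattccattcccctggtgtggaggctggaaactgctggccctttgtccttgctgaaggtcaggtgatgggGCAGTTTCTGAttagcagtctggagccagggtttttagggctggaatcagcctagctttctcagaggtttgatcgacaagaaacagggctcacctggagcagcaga
Hes1 upstream peak: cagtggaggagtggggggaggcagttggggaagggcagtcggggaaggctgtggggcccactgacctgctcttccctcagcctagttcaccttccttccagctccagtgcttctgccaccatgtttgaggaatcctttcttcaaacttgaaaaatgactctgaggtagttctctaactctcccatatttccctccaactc
Hes1 downstream repeat: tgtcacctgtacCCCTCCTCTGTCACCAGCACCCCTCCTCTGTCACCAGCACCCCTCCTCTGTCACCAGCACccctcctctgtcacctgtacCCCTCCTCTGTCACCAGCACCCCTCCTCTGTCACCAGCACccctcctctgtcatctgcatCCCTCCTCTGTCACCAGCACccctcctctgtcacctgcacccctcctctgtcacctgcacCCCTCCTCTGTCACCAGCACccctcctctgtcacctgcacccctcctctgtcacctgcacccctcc
Hes1 downstream PCR product: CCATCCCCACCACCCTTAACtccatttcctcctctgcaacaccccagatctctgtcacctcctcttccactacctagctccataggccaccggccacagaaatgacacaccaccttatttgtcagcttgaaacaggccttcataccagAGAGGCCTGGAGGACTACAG
Hes5 peak: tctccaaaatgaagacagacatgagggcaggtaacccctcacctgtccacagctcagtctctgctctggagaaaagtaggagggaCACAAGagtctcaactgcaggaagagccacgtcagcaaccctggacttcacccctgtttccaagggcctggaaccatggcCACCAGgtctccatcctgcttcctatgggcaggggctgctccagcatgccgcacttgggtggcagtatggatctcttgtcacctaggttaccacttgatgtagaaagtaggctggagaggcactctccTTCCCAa

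The receptors are single-pass membrane proteins that carry the signal from the cell surface to the nucleus. *Notch3* (ENSMUSG00000038146) had a peak at chr17:32254056-32255362, which was 1307 bp wide. Its midpoint lay 49116 bp downstream of the *Notch3* start. The near edge of the peak was 2403 bp beyond the 3′ end of the gene, and the peak lay within an intron of the long intergenic non-coding RNA *Gm17276* and overlapped no annotated exon. The deposited score, whose scale the list does not state and whose lowest value was 5.34, was 7.84 and ranked 2542 of 2849 from the highest. The peak was thus wide and low scoring: it was wider than 89.3% of the peaks in the list, and 10.7% of them scored lower. *Notch3* was the nearest gene start, the next being *Ephx3* at 71785 bp. The midpoint also fell in the domain of *Rrp1b*, whose start was 81664 bp away.

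*Notch1* and *Notch2* had no peak in their domains, of 125 kb and 254 kb. The peak nearest to *Notch1* was 80880 bp upstream of its start, outside the domain, and had a score of 9.31. That peak lay 6874 bp from the start of *Agpat2*, an enzyme of phospholipid synthesis, which together with *Gm20532* held it in its domain. The nearest peak to *Notch2* was 1094622 bp upstream, and *Notch2* was the only one of the 10 genes with no peak within 1 Mb of its start. The 3 receptors therefore ranged from a peak just past the 3′ end of the gene to no peak within 1 Mb.

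The Delta-like and Jagged ligands are membrane proteins presented by the signalling cell, and *Dll3*, unlike the others, is known mainly as an inhibitor within the cell that makes it. No ligand had a peak in its domain, and the nearest peaks lay 453376 bp from *Dll1*, 498896 bp from *Dll3*, 312659 bp from *Jag1* and 215892 bp from *Jag2*. The domains differed widely in length. That of *Dll3* covered 14.9 kb, that of *Jag2* 46.6 kb, that of *Dll1* 345 kb and that of *Jag1* 1220 kb, longer than the domains of 98.1% of protein-coding genes. *Jag1* thus had no peak in 1220 kb of sequence, and the nearest one lay in the domains of *Snap25*, which encodes a synaptic vesicle fusion protein, and *2210009G21Rik*. The peak nearest to *Jag2* was among the strongest of the list, with a score of 60.06, rank 46 and a width of 2991 bp, but its nearest start was that of *AW555464*, at 8571 bp. *Dll4*, the remaining Delta-like ligand that activates Notch receptors, also had no peak in its domain, so that 0 of 5 ligands had one. With 16.5% of all protein-coding genes having a peak, a count of 0 of 5 lies near the background and sets the ligands apart from no other group.

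*Rbpj* (ENSMUSG00000039191) encodes the DNA-binding factor through which all Notch receptors act. Its peak at chr5:54062779-54063753 was 975 bp wide and had a score of 21.06, the highest of the 5 peaks, with rank 559 of the list. Its midpoint lay 116248 bp downstream of the *Rbpj* start and its near edge 14095 bp beyond the end of the gene, outside any annotated gene. The assignment to *Rbpj* rested on the domain rule, because the start of *Cckar*, which encodes a cholecystokinin receptor, was nearer at 35677 bp. From the start of the longest protein-coding transcript of *Rbpj*, the distance was 81812 bp.

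*Hes1* (ENSMUSG00000022528) encodes a basic helix-loop-helix repressor that is the best-known direct target of Notch signalling, and it had peaks on both sides of the gene, 130434 bp apart. The upstream peak at chr16:30013319-30013992 was 674 bp wide and had a score of 7.58, rank 2588. It lay 50814 bp upstream of *Hes1*, in an intron of the long intergenic non-coding RNA *4632428C04Rik*, and the start of *Gm1968* was almost as near, at 51263 bp. The downstream peak at chr16:30142895-30145285 lay 79620 bp downstream in sequence without annotated genes, was 2391 bp wide and had a score of 11.2, rank 1708. It was wider than 96.9% of the peaks, while 40.0% of the peaks had a lower score. *Hes1* was the nearest start to both peaks, but from the start of its longest protein-coding transcript the upstream peak was 51770 bp away, farther than from *Gm1968*. *Cpn2*, a carboxypeptidase subunit, shared the downstream peak at 123528 bp.

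The downstream *Hes1* peak is also where the study placed its PCR primers for a *Hes1* site. The quantitative PCR pair matched mm9 in this place only and delimited 168 bp, all of it inside the peak, centred 848 bp beyond the peak midpoint. The pair used to clone a reporter fragment delimited 2135 bp, or 89.3% of the peak, and ended with the last base of the peak, although its forward primer alone matched the genome at 7 places. The reporter fragment falls outside the rule for the primers named and is given because it defines the cloned part of the peak.

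*Hes5* (ENSMUSG00000048001) encodes a related repressor and had the shortest distance of the 5 peaks. The peak at chr4:154319768-154320495 was 728 bp wide, had a score of 9.99 and rank 2016, and lay 14900 bp upstream of the *Hes5* start in sequence without annotated genes. The start of *Tnfrsf14*, a receptor of the tumour necrosis factor family, was 17460 bp away. *Hes5* reached this count with a domain of only 28.4 kb, and it had 9 peaks within 1 Mb, the most of the 10 genes.

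**Figure D1:**
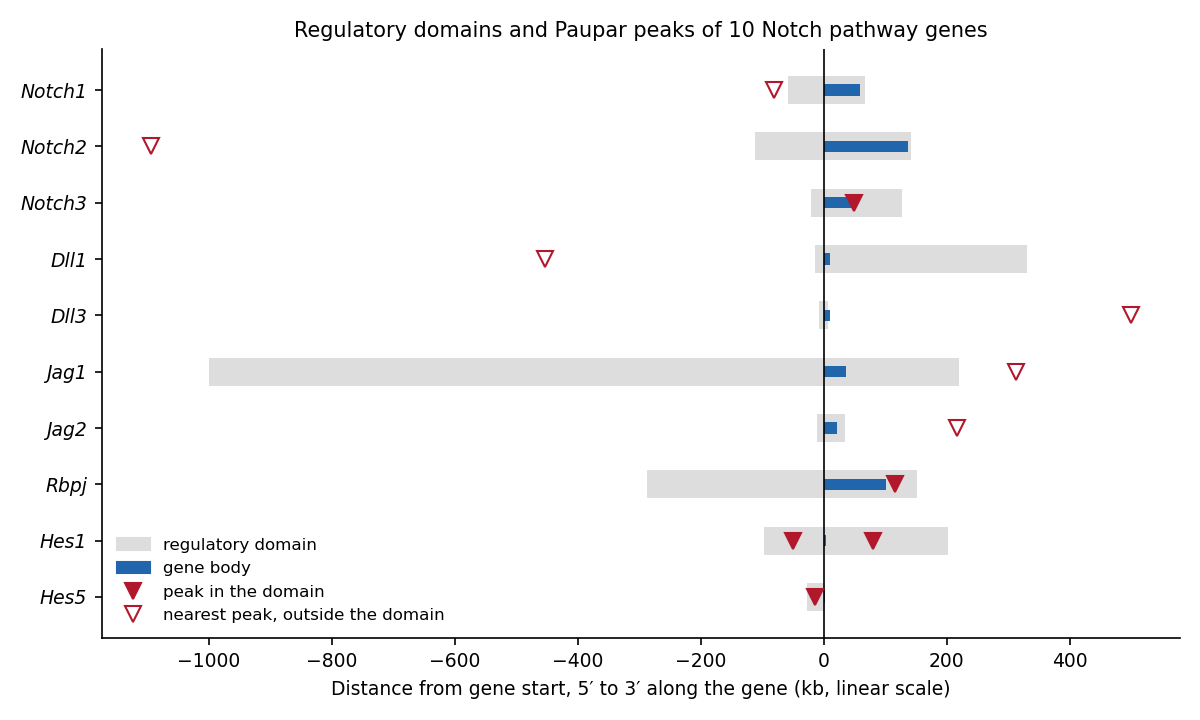
Regulatory domains (grey), gene bodies (blue) and peaks of the 10 Notch pathway genes, with the distance from the gene start in kb along each gene on the horizontal axis. Filled triangles mark the 5 peaks in a domain, all between 14900 and 116248 bp from the start, and open triangles the nearest peak of the 6 genes without one.

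In position the 5 peaks were like most peaks of the list. Their midpoints lay 14900 to 116248 bp from the start of the Notch pathway gene, with a median of 50814 bp, and all 5 were over 5 kb from every protein-coding start, as were 83.9% of all peaks. None of the 5 overlapped an exon, and 87.4% of all peaks overlapped none. None overlapped the body of a protein-coding gene, which held for 51.2% of all peaks. All 5 midpoints lay in the domains of at least 2 genes, as did 85.0% of all midpoints, since neighbouring domains overlap by construction, and the Notch pathway gene was the nearer start for 4 of the 5. Scores ran from 7.58 to 21.06 with a median of 9.99, below the median of all peaks of 12.69, and the *Rbpj* peak was the only one above it. Widths ran from 674 to 2391 bp with a median of 975 bp, and all 5 were above the median of all peaks of 556 bp.

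**Figure D2:**
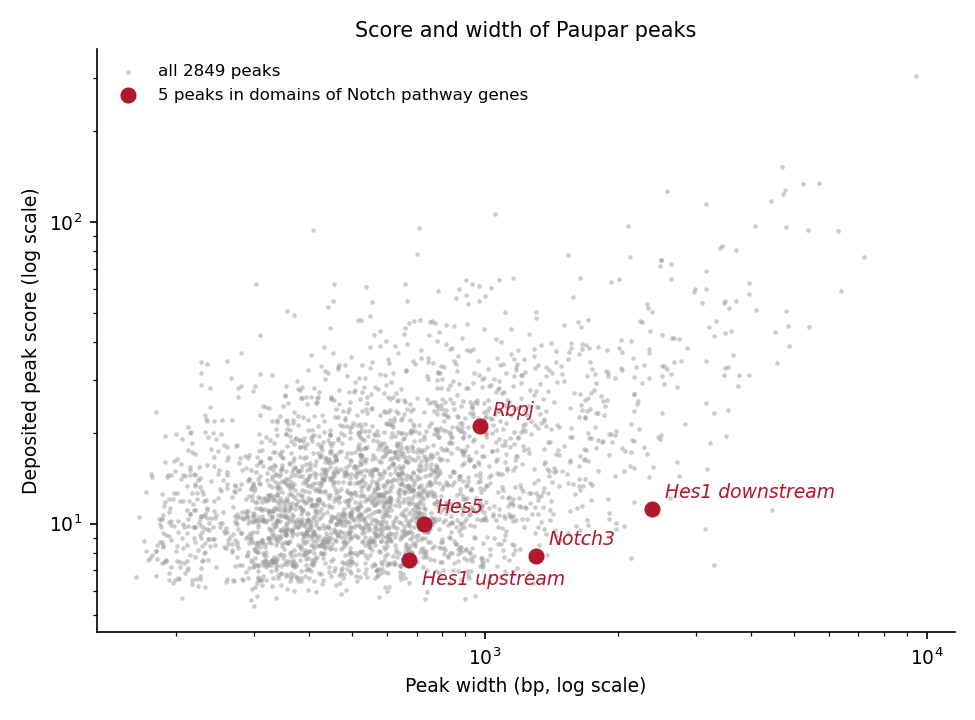
Deposited score against width for all 2849 peaks (grey) and the 5 peaks of the Notch pathway genes (red), both axes on a log scale. The 5 peaks lie to the right of the median width of 556 bp, and 4 of them lie below the median score of 12.69.

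The number of genes with a peak has to be read against the length of the domains, since a long domain has more room for a peak. Among all protein-coding genes sorted by domain length into 4 groups of 5595, the share with a peak was 4.65% in the shortest group, 9.31% in the second, 18.2% in the third and 33.7% in the longest. The Notch pathway genes had a median domain of 202 kb, against 89.6 kb for all genes, and 5 of the 10 lay in the longest group, of which *Rbpj* and *Hes1* had a peak. *Notch3* had a peak and *Notch1* had none in the third group, *Jag2* had none in the second, and *Hes5* had a peak and *Dll3* had none in the shortest. Over the summed domains there were 1.71 assignments of a peak to a gene per Mb for the Notch pathway genes, from 5 assignments, and 1.17 for all genes. The start of a Notch pathway gene was a median of 166 kb from the nearest peak, against 277 kb for all genes, and 4 of 10 had a peak within 100 kb, against 5763 of 22380. With 10 genes, 1 gene more or fewer moves the share with a peak by 10 percentage points. The genes were chosen with earlier results of these data known, so the values per Mb and the distances are also descriptions and support nothing.

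**Figure D3:**
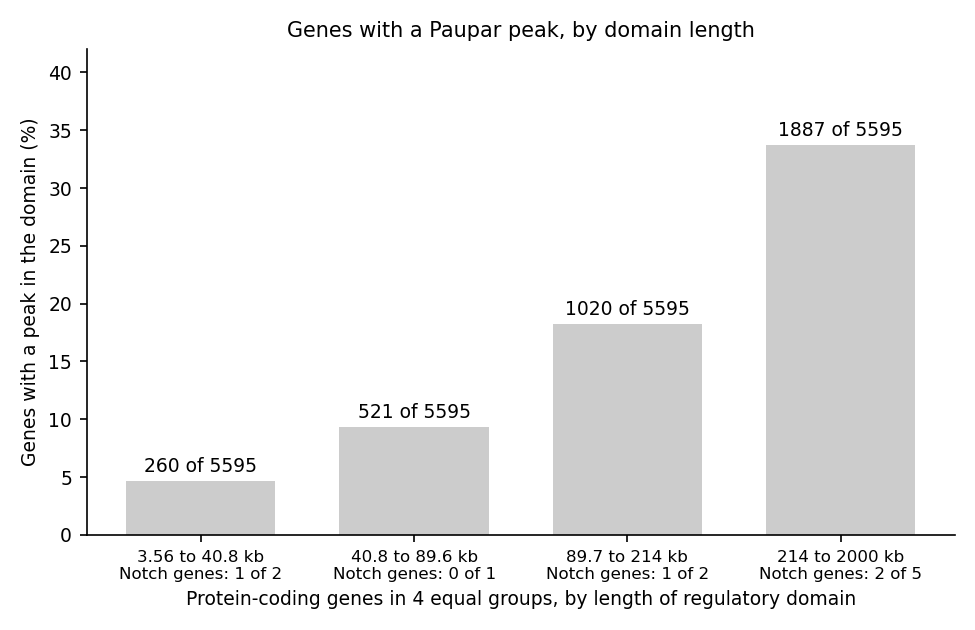
Percentage of protein-coding genes with a peak midpoint in the regulatory domain, for 4 groups of 5595 genes by domain length, with the counts above each bar and the counts of Notch pathway genes below it. The share of all genes rose from 4.65% in the shortest group to 33.7% in the longest.

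The wider pathway was described from a list of 72 genes that holds the 10 genes and 62 others, grouped by role. Of the 62 others, 11 had a peak in their domain (17.7%), close to the 16.5% of all protein-coding genes, and 15 of the whole list did (20.8%). By domain length, the others had a peak in 2 of 18 in the shortest group, 2 of 13 in the second, 1 of 15 in the third and 6 of 16 in the longest.

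Among the 5 glycosylation genes, which attach and extend the sugars on the receptor, *Lfng*, a Fringe glycosyltransferase, had a peak 23786 bp upstream of its start with a score of 21.83, although *Grifin* was the nearer start at 18484 bp. *Pofut1*, the fucosyltransferase on whose product Fringe acts, had a peak 40916 bp downstream with a score of 19.73, and there *Kif3b* was nearer, at 8964 bp. The other three, *Poglut1*, *Mfng* and *Rfng*, had their nearest peaks 30.4, 67.8 and 53.0 kb away, outside their domains. Of the 3 genes for ubiquitin ligases that act on ligands, *Neurl1a* had a peak with a score of 17.04, which lay 250217 bp downstream of its start inside *Sh3pxd2a*, whose start was nearer at 35374 bp. *Mib2* had its nearest peak at 64.7 kb, outside its domain. None of the 10 genes for receptor cleavage had a peak, but none of them lay in the group with the longest domains, and the difference between roles was not tested. Within 100 kb but outside the domain lay the nearest peaks of the protease gene *Furin* (28.5 kb) and of the γ-secretase genes *Psenen* (30.5 kb) and *Psen2* (85.9 kb). None of the 3 ligand-like genes had a peak, and *Notch4* had none, which left *Notch3* as 1 of 4 receptors.

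Among the 9 genes that inhibit or turn over receptors, the Deltex relatives *Dtx3* and *Dtx3l*, both coding for ubiquitin ligases, had a peak. The *Dtx3* peak was nearer to the start of its gene than any other peak was to a start among the 72 pathway genes, with its midpoint 586 bp upstream, and overlapped the long intergenic non-coding RNA *F420014N23Rik*. Its score of 7.02 was low, with rank 2716 of 2849. The *Dtx3l* peak lay 16867 bp upstream of its start inside *Parp9* and had a score of 7.84.

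In the nucleus, 3 of the 10 genes listed under the role of nuclear complex had a peak. Next to *Rbpj* these were *Kat2b*, which encodes a histone acetyltransferase, and *Crebbp*. The *Kat2b* peak, inside the gene and 90541 bp from its start, had the highest score of all peaks assigned to the pathway, 39.44 with rank 129, with *Sgol1* as the nearer start at 31931 bp. *Crebbp*, an acetyltransferase gene that falls outside the rule for the genes named and was chosen after its values were seen, had a peak 157757 bp upstream inside *Adcy9*, whose start was nearer at 49337 bp, with a score of 7.01. Of the 13 corepressor genes, 4 had a peak. The *Hdac2* peak, near a histone deacetylase gene, lay 49878 bp upstream with a score of 16.67. The Groucho-type corepressor gene *Tle3* had a peak 61473 bp downstream with a score of 14.11. *Tle4*, of the same type, had 4 peaks between 245968 and 358694 bp from its start in a domain of 1680 kb, the highest with a score of 17.15. *Tle2* and *Aes* had a peak in common 50.2 and 35.2 kb away, outside both domains.

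Among the 7 target genes, *Hes1* and *Hes5* had a peak, beside 16.5% of all protein-coding genes. Both belong to the 10 genes chosen with earlier results known, so this count is a description and sets the targets apart from no other group. *Heyl* had its nearest peak at 60.9 kb, outside its domain, and *Hes7*, *Hey1*, *Hey2* and *Nrarp* had no peak within 100 kb. None of the 3 other Hes family genes had a peak in its domain, the nearest being 76.9 kb from *Hes3*.

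**Figure D4:**
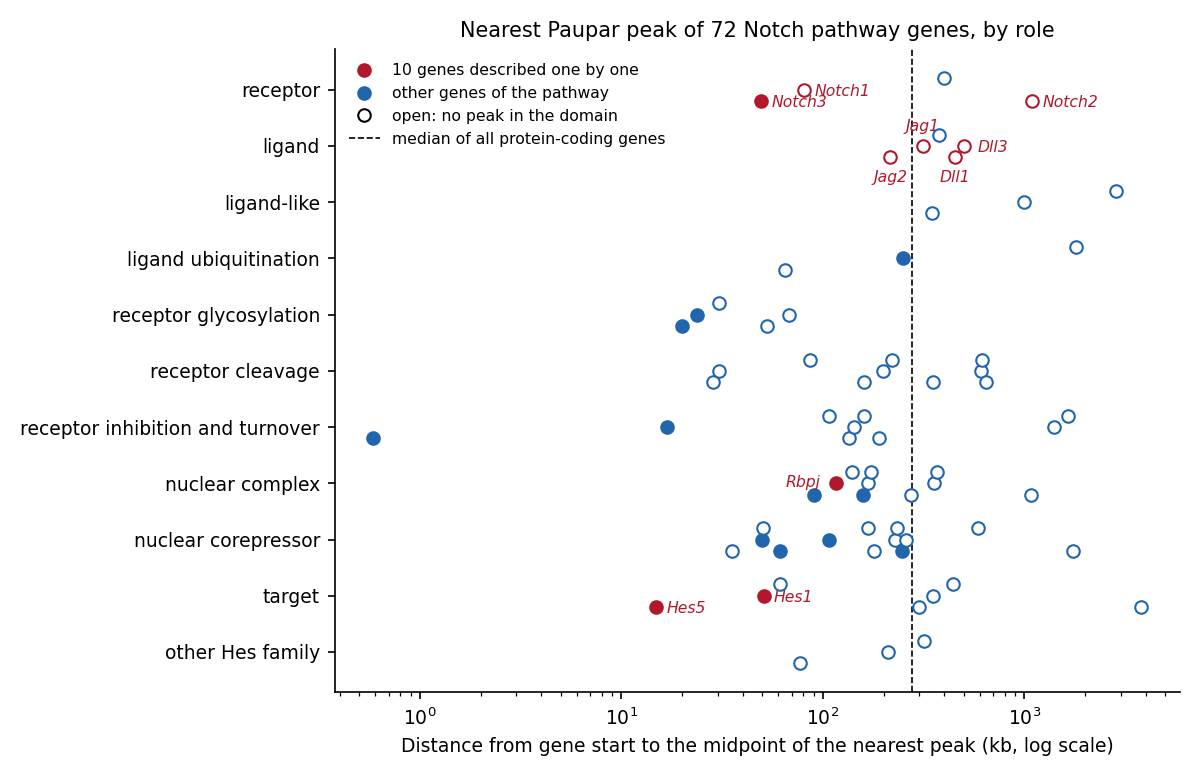
Distance in kb (log scale) from the gene start to the midpoint of the nearest peak for 72 Notch pathway genes by role, with the 10 genes in red, the others in blue and filled points for genes with a peak in their domain. For *Pofut1* the nearest peak, at -20041 bp, lies outside the domain and the counted one lies farther, and the dashed line marks the median of all protein-coding genes, 277 kb.

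The 500 bp around each midpoint were searched on both strands for letters that the factors of the pathway are known to prefer: the core of the RBPJ site TGGGAA, and, for Hes repressors, the N box CACNAG, the class C site CACGNG and the E box CACGTG. The E box is a special case of the class C letters, and CACGAG counts both as N box and as class C site. The RBPJ core was found in the *Notch3* and *Hes5* windows, that is in 2 of 5, and in 37.3% of all 2849 windows. The *Notch3* peak held its 2 copies 127 and 221 bp from the midpoint, on opposite strands. The N box was found in the *Rbpj* and *Hes5* windows, 2 of 5, and in 61.4% of all windows. The *Hes5* window held 4 N boxes and 1 RBPJ core, 143 bp from the midpoint, and was the only one of the 5 with both. The class C site was found in the same 2 windows as the N box, 2 of 5, where it was in each case a site counted as an N box too, and in 20.7% of all windows. No window of the 5 held the E box, against 6.14% of all. These shares come from 5 peaks and describe letters in the sequence, not bound factors. The windows had a GC content of 47.2% to 55.2%, and all but the downstream *Hes1* window were above the median of all windows of 47.6%.

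The downstream *Hes1* peak, the widest of the 5, had none of these letters in its central 500 bp but held 15 N boxes over its whole length. This was 6.27 per kb, against 2.04 per kb over the whole length of all peaks, and the *Hes5* peak held 4, or 5.49 per kb, and the *Rbpj* peak 3, or 3.08 per kb. The *Notch3* and the upstream *Hes1* peaks held no N box. RBPJ cores over the whole length came to 0.836 per kb in the downstream *Hes1* peak, 1.53 in *Notch3* and 2.75 in *Hes5*, against 0.971 for all peaks. The *Rbpj* and upstream *Hes1* peaks held no RBPJ core. Class C sites came to 0.765 per kb in *Notch3*, 1.03 in *Rbpj* and 1.37 in *Hes5*, against 0.658 for all peaks. Neither *Hes1* peak held a class C site. In the downstream *Hes1* peak 7 of the 15 N boxes lay in the tandem repeat printed above. This was a stretch of 278 bp in which a 20-base unit followed itself 13.9 times, with 94.2% of bases equal to the base 1 unit further on. The commonest form of the unit was ccctcctctgtcaccagcac, with 7 exact copies, and each of these holds the N box CACCAG. The repeat ended 97 bp before the quantitative PCR product, which lay outside it, and the reporter fragment contained it. The repeat was looked for after its sequence had been seen. With 1 added for each base equal to the base 1 unit further on and 2 taken off for each other base, the repeat reached a score of 213. A score of at least 100 with a unit of 10 to 60 bases was found in 272 of 2849 peaks (9.55%) and in 80 of the 133 peaks of over 2000 bp (60.2%), and in none of the other four peaks of the Notch pathway genes.

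**Figure D5:**
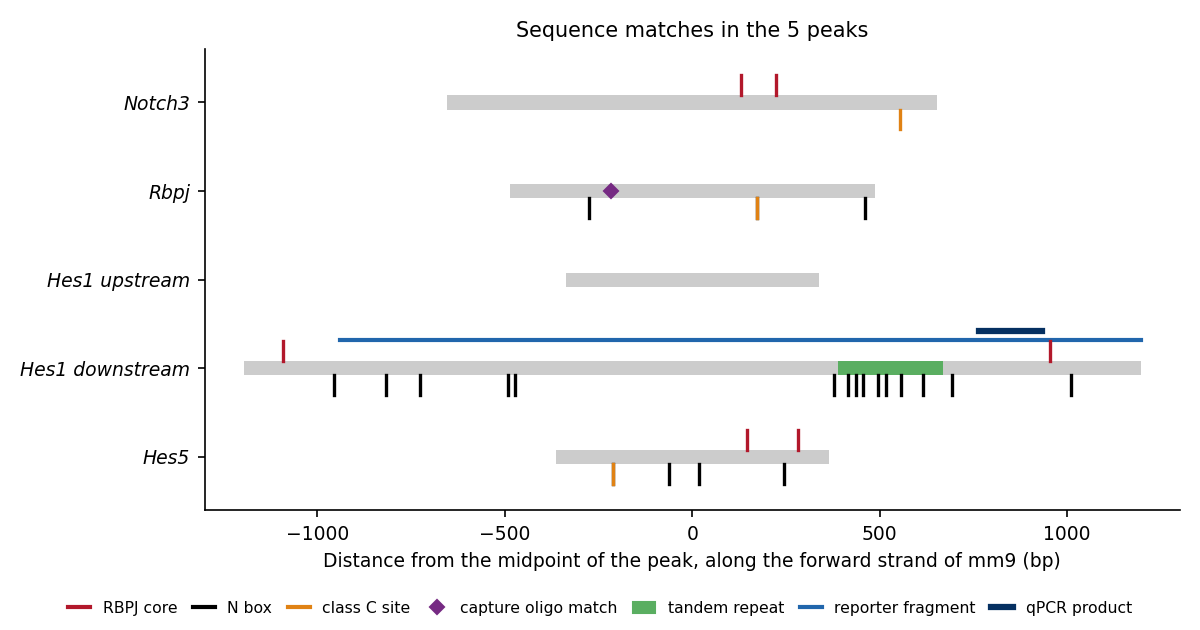
The 5 peaks of the Notch pathway genes (grey bars) to scale around their midpoints, in bp along the forward strand, with RBPJ cores above and N boxes and class C sites below each bar, a class C site covering an N box at the same position. The downstream *Hes1* peak shows 15 N boxes, of which 7 lie in the tandem repeat (green), with the reporter fragment and the quantitative PCR product drawn above it, and the upstream *Hes1* peak shows none of the motifs.

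A further measure was the match of each peak to the 4 *Paupar* capture oligonucleotides, the reagents that separated the *Paupar* pull-downs from the controls. Only the *Rbpj* window held an exact match of 10 bases or more, as did 19.6% of all windows. The match was 11 bases long, which 5.76% of all windows reached, and lay at chr5:54063045-54063055 on the minus strand. It is in capitals in the oligonucleotide of 24 bases below and in the *Rbpj* stretch printed above, where it reads as the reverse complement.
PauparCHART2041: ctcTCAGAAACTGCgatacaaaag
The longest matches in the whole peaks of *Notch3*, *Hes5* and downstream *Hes1* were 9 bases and in the upstream *Hes1* peak 8 bases. No window of the 5 held a match of 10 bases to the *LacZ* control oligonucleotide, against 0.14% of all windows. Whether the match contributed to the *Rbpj* peak was not tested.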

How the data were processed

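The authors sequenced 2 *Paupar* pull-downs, 2 *LacZ* pull-downs and 1 input library from N2A cells, kept the reads that Bowtie placed at a single site of mm9, used MACS2 to call peaks for each *Paupar* library against its *LacZ* control and against the input, and retained calls past a threshold on the −log10 q-value (tool versions not given in the sources used here). The deposited list of 2849 peaks, common to both comparisons, gives a position and a score per peak. The study speaks of a MACS2 peak score, and the lowest score, 5.34, lies above that threshold, but the column's scale is not named. How the replicates' calls were joined is not given in the sources used here, so per-library depth and replicate error were unknown. Reads that matched several places, as in repeated sequence, were thereby dropped.

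Positions were joined to the NCBIM37 annotation (GENCODE M1) with Python 3.11.15, pandas 2.3.3 and pysam 0.24.0. All 10 genes and the 62 further listed genes were found in it. Assignment was tested on simulated data: all 3806 gene-peak pairs expected from 400 genes and 2000 peaks were recovered. Among the further genes, those with a peak within 100 kb and the 10 with the highest scoring peak were named, except for an item that is not reported here. The genes, lists and motifs were chosen with earlier results of these data known. Alternatives were a shorter extension, the nearest start only, any overlap, a score of at least 10, merged peaks, all biotypes, other transcript starts, and other window and match lengths. The study's expression and knockdown values were not used here.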

Additional observations from a re-analysis of the deposited data

How the results depend on the processing

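The 4 genes and 5 peaks were the same with any overlap of peak and domain, with peaks within 10 kb merged, and with the start of the longest transcript; with domains bounded by genes of every biotype the 4 genes had 4 peaks, and 11.7% of all genes had a peak. With domains extended by at most 100 kb, *Rbpj* lost its peak and 3 genes remained with a peak, beside 10 of the 72 pathway genes and 11.9% of all genes, and the same 3 had a peak when each peak was given to the nearest start only. Under the nearest start, 8 of the 72 pathway genes and 9.95% of all protein-coding genes had a peak, in place of 15 and 16.5%. With a score of at least 10, 2 genes (*Rbpj* and *Hes1*) with 2 peaks remained, and 12.7% of all genes; *Hes5*, at a score of 9.99, lay just under that threshold. In central windows of 200 bp, 1 of the 5 peaks held an N box and none held the RBPJ core, the class C site or an oligonucleotide match of 10 bases, against 936, 471, 239 and 286 of the 2849 peaks. Replicates could not be left out in turn and no paired analysis was possible because the list holds no value per library. Depth is unknown, so that a gene without a peak has no peak passing the study's threshold and is not shown to be free of *Paupar*.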
